A study of Homo sapiens with 14 samples.

Results

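PPP1R12C and 5 of its neighbours on chromosome 19 were followed through K562 cells in which the common control guide, sgAAVS1, directs a repressor to the AAVS1 site. The 6 genes, PPP1R12C, EPS8L1, RDH13, TNNT1, TNNI3 and HSPBP1, were chosen by name from the 35805 gene rows of the deposited table, and all 6 passed the filter on low values that left 16433 tested genes. The question was whether the host gene of AAVS1 was lower with the AAVS1 guide and in no other group, and whether the genes beside it were lower too. K562, an established cell line, came from chronic myeloid leukaemia, and all groups carried dCas9-KRAB, a Cas9 that does not cut DNA fused to a repressor domain. The sgAAVS1 group had 3 libraries with 1 guide. The TASOR, MPP8 and PPHLN1 knockdowns had 2 libraries each, with a different guide in each library, and the TASOR2 knockdown had 3 in the labels. RNA from these 5 transduced groups was taken on day 7. Untransduced cells, with dCas9-KRAB and no guide, had 2 libraries. TASOR belongs to HUSH, TASOR2 to HUSH2, and MPP8 and Periphilin (PPHLN1) act with both in silencing through chromatin.

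AAVS1 lies in the first intron of PPP1R12C and is widely used as a safe harbour, a place where added DNA is held to disturb the cell little. PPP1R12C, also named MBS85, belongs to the family of targeting subunits that bring the phosphatase PP1 to myosin. In CRISPR interference the KRAB domain recruits factors that lay down repressive histone methylation, and it acts best near a gene's start. The guide's sequence and the exact place it binds are given neither in the labels nor in the table, so the distance from it to any start is not reported.

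In hg38, PPP1R12C (ENSG00000125503) lies on the minus strand of chromosome 19, at 55090913 to 55117559. GENCODE release 29, whose ends match the deposited ones for all 6 genes, gives it 22 exons. Exon 1 covers 55117223 to 55117559, and the first intron runs for 4427 bases, at 55112796 to 55117222. EPS8L1, on the plus strand at 55072020 to 55087923, is the nearest neighbour past the end of PPP1R12C, with 2989 bases between them. RDH13, on the minus strand at 55039108 to 55071291, lies farther out, 19621 bases from PPP1R12C. On the side of the PPP1R12C start, TNNT1 (55132794 to 55149354) begins after a gap of 15234 bases, TNNI3 (55151767 to 55157773) after 34207 bases and HSPBP1 (55262231 to 55280381) after 144671 bases, all on the minus strand. From start to start, TNNT1 is 31.8 kb from PPP1R12C, TNNI3 40.2 kb, EPS8L1 45.5 kb, RDH13 46.3 kb and HSPBP1 163 kb.

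The 250 bases before a RefSeq start (GRCh38.p14) are shown for the host gene and for its nearest neighbour on either side, since repression of a gene by dCas9-KRAB is usually aimed at such sequence. They are written 5′ to 3′ on each gene's own strand, with capitals marking TGACGTCA and GGGCGG on either strand (CCGCCC on the other). PPP1R12C is shown at chr19:55117638-55117887 (minus strand), EPS8L1 at chr19:55075619-55075868 (plus strand) and TNNT1 at chr19:55149207-55149456 (minus strand). These RefSeq starts differ from the GENCODE starts used for the distances above. By the GENCODE ends, the EPS8L1 window lies inside the gene and the TNNT1 window overlaps the gene.
PPP1R12C: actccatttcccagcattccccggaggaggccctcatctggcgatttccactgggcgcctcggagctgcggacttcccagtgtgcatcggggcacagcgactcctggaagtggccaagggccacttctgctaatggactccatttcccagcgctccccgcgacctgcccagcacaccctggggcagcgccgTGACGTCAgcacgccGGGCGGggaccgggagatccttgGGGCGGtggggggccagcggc
EPS8L1: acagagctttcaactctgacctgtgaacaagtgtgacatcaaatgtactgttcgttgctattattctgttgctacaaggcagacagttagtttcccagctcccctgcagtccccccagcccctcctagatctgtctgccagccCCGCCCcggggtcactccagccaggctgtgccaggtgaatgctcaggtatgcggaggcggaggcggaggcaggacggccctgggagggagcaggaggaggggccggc
TNNT1: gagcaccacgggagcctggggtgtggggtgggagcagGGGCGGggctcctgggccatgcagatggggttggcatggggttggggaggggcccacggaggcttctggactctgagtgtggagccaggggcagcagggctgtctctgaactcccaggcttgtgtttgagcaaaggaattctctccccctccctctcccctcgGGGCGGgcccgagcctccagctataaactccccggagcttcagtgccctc
The PPP1R12C window held 19 CG dinucleotides, against 8 in the EPS8L1 window shown, 7 for TNNT1 and a median of 11 over 34943 windows of the same length. Its GC content was 68.4%, against 60.4% for that EPS8L1 window, 66.8% for TNNT1 and a median of 58% over all windows. RefSeq gives EPS8L1 another start, and the window before it (chr19:55080131-55080380) held more of each than the PPP1R12C window, with 22 CG dinucleotides, 71.6% GC and 3 GGGCGG. Of the windows shown, PPP1R12C alone held TGACGTCA, which is its own reverse complement, 1 time. The motif was also present 1 time before a RefSeq start of RDH13 (chr19:55063149-55063398), inside the gene by its GENCODE ends, and in 1.63% of all windows. GGGCGG occurred 2 times before PPP1R12C, 1 time in the EPS8L1 window shown and 2 times before TNNT1, and in 42.5% of all windows on either strand. These are matches of letters, and binding was not measured.

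Each value below is a group mean made by the authors on a log2 scale close to log2 CPM (reads scaled to a common depth), and single libraries were not analysed here. What follows a ± is one side of a difference's 95% counting (Poisson) interval. It holds counting error alone, and the spread between replicates or guides could not be measured, so no comparison has a test. The geometric mean depth per library lay between 5857954 reads in the TASOR2 knockdown and 7406988 in untransduced cells, with 6202788 in sgAAVS1 cells. A gene was called higher or lower at a 2-fold difference, with the higher mean above 0 on the log2 scale and an interval without 0. Calls at 1.5-fold are given beside these. The labels held at the targeted genes: FAM208A (TASOR) had a log2 mean of 3.29 in its own knockdown, 7.22 in sgAAVS1 cells and 7.35 in untransduced cells. All 12 erythroleukaemia markers examined, GATA1 among them, had means above 3 in every group, while the hepatocyte markers ALB, APOA1 and TTR were at or next to the value of no reads. Single markers of other cell types, CD3D (T cells), COL1A1 and COL1A2 (fibroblasts) and DES (muscle), also had means above 3 in every group, and their part in the results was not tested.

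PPP1R12C was lowest in sgAAVS1 cells. Its log2 mean was 6.82 in sgAAVS1 cells, 7.48 in TASOR, 7.23 in TASOR2, 7.59 in MPP8 and 7.50 in PPHLN1 knockdowns, and 7.21 in untransduced cells. On a linear scale this is 113 CPM in sgAAVS1 cells, 178, 150, 193 and 181 CPM in the TASOR, TASOR2, MPP8 and PPHLN1 knockdowns, and 148 CPM in untransduced cells. The sgAAVS1 mean stood apart below the other 5, which themselves spanned 0.38 on the log2 scale. About 2099 reads over the group stood behind the sgAAVS1 mean and 2198 behind the untransduced mean.

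The sgAAVS1 level of PPP1R12C was 76.0% of the untransduced level (95% counting interval 71.6% to 80.7%), a log2 difference of -0.40 ± 0.09. It was 63.2% of the TASOR level (-0.66 ± 0.08), 75.0% of the TASOR2 level (-0.41 ± 0.09), 58.5% of the MPP8 level (-0.77 ± 0.09) and 62.5% of the PPHLN1 level (-0.68 ± 0.09). All 5 intervals excluded 0, and all 5 comparisons share the sgAAVS1 mean. None of the 5 reached 2-fold, the size at which 1.95% of tested genes were called lower against TASOR, 2.26% against TASOR2, 1.65% against MPP8, 2.88% against PPHLN1 and 1.38% against untransduced cells. At 1.5-fold PPP1R12C was called lower against TASOR, MPP8 and PPHLN1, where 5.33%, 3.41% and 6.32% of tested genes were. It was not called at 1.5-fold against TASOR2 or untransduced cells, where 5.31% and 3.24% of genes were. In bulk RNA, fewer cells that express a gene and less of its RNA per cell cannot be told apart.

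The deposited scaling left sgAAVS1 slightly below the other groups as a whole. The median difference over all tested genes was -0.16 against TASOR, -0.07 against TASOR2, -0.12 against MPP8, -0.17 against PPHLN1 and -0.05 against untransduced cells. Relative to these medians, PPP1R12C differed by -0.50, -0.35, -0.65, -0.51 and -0.35 in the same order. Only 1 of the 5, that against MPP8, then passed 1.5-fold. Differences of sgAAVS1 also moved with transcript GC content. Across 8930 genes, Spearman's rho between GC content and the difference was 0.71 against TASOR2, 0.55 against untransduced cells, -0.18 against TASOR, -0.31 against MPP8 and -0.35 against PPHLN1, and genes are not independent replicates. The PPP1R12C transcript has 61.0% GC, more than 87.8% of the tested genes. With the GC trend removed, PPP1R12C passed 1.5-fold in 4 of the 5 comparisons, and in 1 of the 5, that against MPP8 at -0.61, when the median difference was set to 0 as well.

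**Figure D1:**
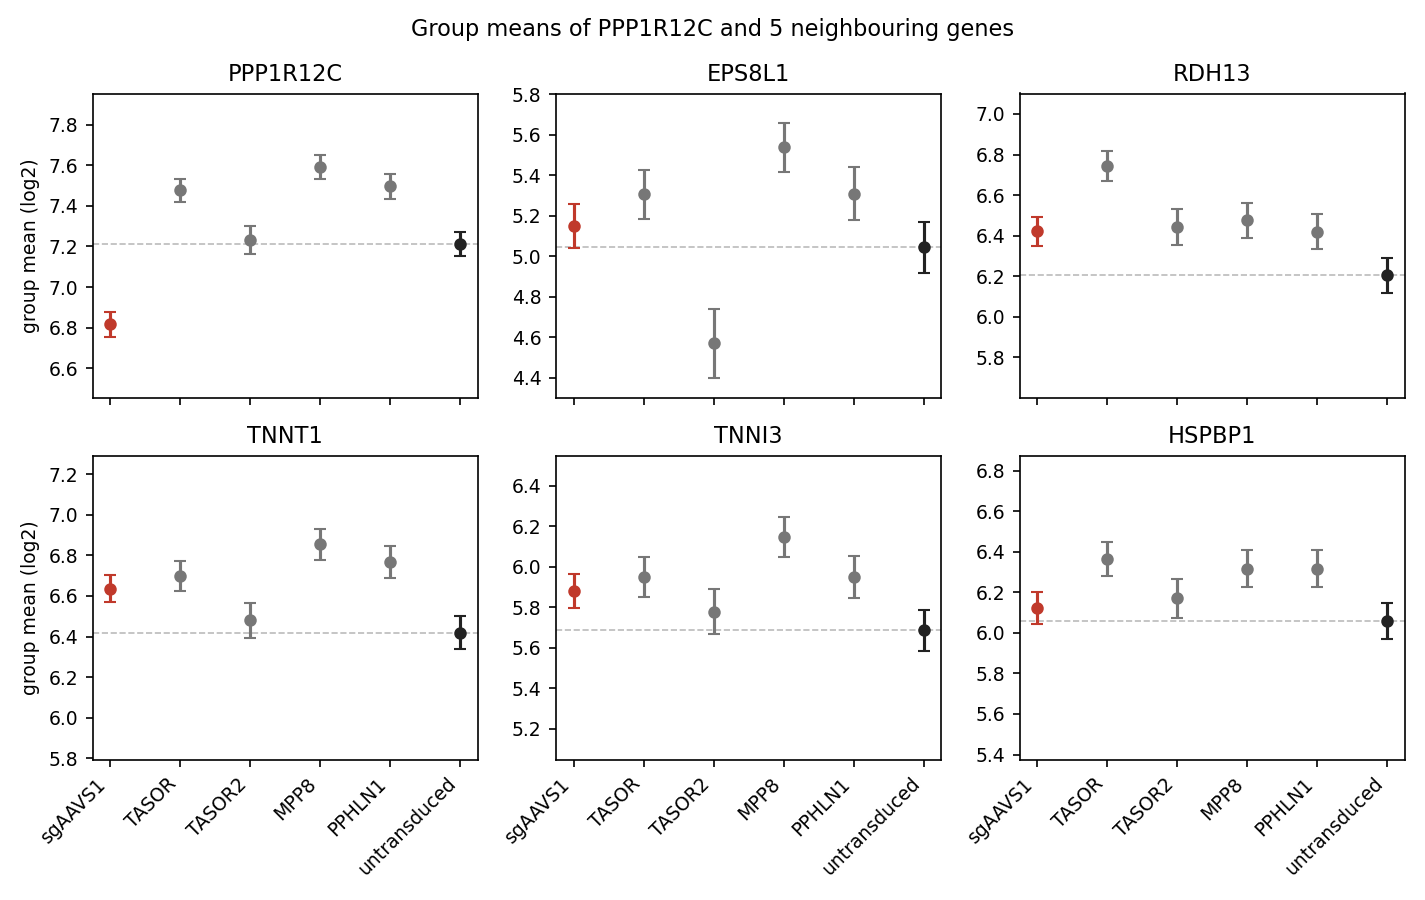
Log2 group means (points, the authors' means, with 95% counting intervals and no replicate spread) of PPP1R12C and 5 neighbours in sgAAVS1 cells, the 4 knockdowns and untransduced cells, whose mean is the dashed line; each panel has its own axis. For PPP1R12C the sgAAVS1 mean of 6.82 lies below the other 5, which run from 7.21 to 7.59, and for no neighbour is sgAAVS1 the lowest group.

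Among the other 5 groups, PPP1R12C ran from highest to lowest as MPP8, PPHLN1, TASOR, TASOR2 and untransduced cells. PPHLN1 and TASOR did not differ beyond counting error, and neither did TASOR2 and untransduced cells (0.02 ± 0.09). PPP1R12C stood above untransduced cells by 0.27 ± 0.08 in the TASOR, 0.38 ± 0.08 in the MPP8 and 0.28 ± 0.09 in the PPHLN1 knockdown, none of them 1.5-fold. The medians over all tested genes were 0.12, 0.08 and 0.13 in the same order. Every neighbour also stood above untransduced cells there, by 0.26 to 0.54, 0.26 to 0.49 and 0.22 to 0.35, so the rise was not particular to PPP1R12C. At 1.5-fold, 3.23% of tested genes were called higher than untransduced cells in the TASOR, 2.7% in the TASOR2, 2.81% in the MPP8 and 3.24% in the PPHLN1 knockdown. The comparisons with sgAAVS1 as the baseline therefore give larger values for PPP1R12C than those with untransduced cells.

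A stricter description asked for an sgAAVS1 mean below each of the other 5 means with all 5 counting intervals excluding 0. PPP1R12C met it, as did 606 of 16433 tested genes (3.69%), and none of the 5 neighbours did. The reverse, above all 5, was met by 8 genes (0.0487%). The gap between sgAAVS1 and the next lowest mean was -0.40 for PPP1R12C, and 237 tested genes had a gap at least as wide. Among 11651 genes with every mean above 3, 16 had one, PPP1R12C included. Among the 2377 genes whose average over the groups was at least that of PPP1R12C, PPP1R12C alone had one. The next there was PDE4DIP, a scaffold for phosphodiesterase, at -0.21. Both of these narrower sets were chosen after the values were seen. With each column's median set equal, 51 genes (0.31%) lay below all 5, PPP1R12C among them with a gap of -0.32. Under quantile normalization 60 genes (0.365%) did, PPP1R12C among them with a gap of -0.29. With the GC trend removed, 506 of 16277 genes (3.11%) did, and 73 (0.448%) when the median was set to 0 as well, and PPP1R12C was again among them, at -0.46 and -0.42.

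**Figure D2:**
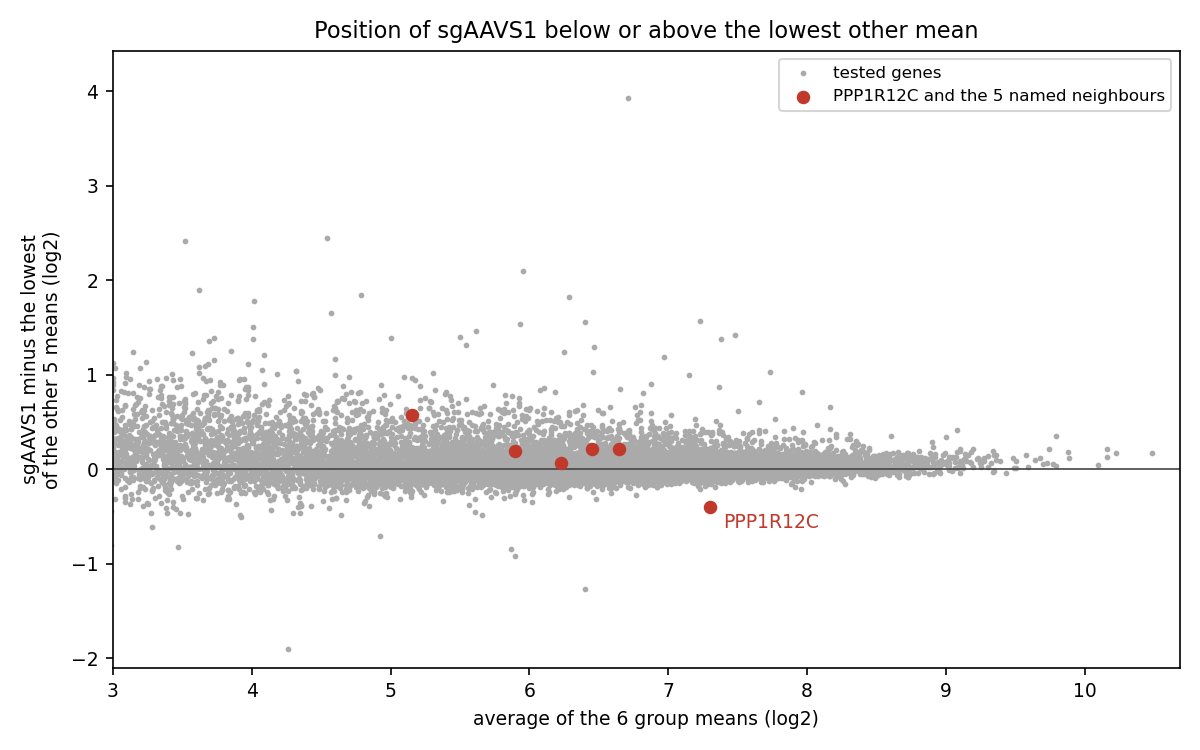
The sgAAVS1 mean minus the lowest of the other 5 group means (vertical axis, log2) against the average of the 6 group means (horizontal axis, log2), each grey point 1 tested gene with an average of at least 3. PPP1R12C lies 0.40 below the line at an average of 7.30, and the 5 neighbours lie above it.

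In none of the 5 neighbours was sgAAVS1 the lowest group. EPS8L1, an actin regulator of the EPS8 family, had log2 means of 5.15 in sgAAVS1 cells, 5.31 in TASOR, 4.57 in TASOR2, 5.54 in MPP8 and 5.31 in PPHLN1 knockdowns, and 5.04 in untransduced cells. Its sgAAVS1 mean lay within the range of the others, and sgAAVS1 minus untransduced was 0.11 ± 0.17. EPS8L1 varied more than PPP1R12C, with TASOR2 the lowest group, and sgAAVS1 stood 0.58 ± 0.20 above TASOR2 and differed from MPP8 by -0.39 ± 0.16.

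TNNT1, slow skeletal muscle troponin T, lies upstream of the PPP1R12C start. It had log2 means of 6.64 in sgAAVS1 cells, 6.70 in TASOR, 6.48 in TASOR2, 6.85 in MPP8 and 6.77 in PPHLN1 knockdowns, and 6.42 in untransduced cells, a difference of 0.22 ± 0.10 for sgAAVS1 minus untransduced. TNNI3, cardiac troponin I, had 5.88 in sgAAVS1 cells, 5.95 in TASOR, 5.78 in TASOR2, 6.15 in MPP8 and 5.95 in PPHLN1 knockdowns, and 5.69 in untransduced cells, a difference of 0.19 ± 0.13. Both troponin genes were lowest in untransduced cells and highest in the MPP8 knockdown, and sgAAVS1 lay between. With sgAAVS1 left aside, both had the order seen for PPP1R12C: MPP8, PPHLN1, TASOR, TASOR2 and untransduced cells. Some of these steps were within counting error. Against MPP8, sgAAVS1 differed by -0.22 ± 0.10 for TNNT1 and by -0.27 ± 0.13 for TNNI3, and against PPHLN1 by -0.13 ± 0.10 for TNNT1. Troponins regulate contraction of striated muscle, yet of the 8 troponin genes listed only TNNT1, TNNI3 and TNNC1 passed the filter, and TNNT2, TNNT3, TNNI1 and TNNI2 were at the value of no reads in every group. Of 10 striated muscle markers, 2 were tested, DES and CKM.

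RDH13, a retinol dehydrogenase of mitochondria, had log2 means of 6.42 in sgAAVS1 cells, 6.74 in TASOR, 6.44 in TASOR2, 6.48 in MPP8 and 6.42 in PPHLN1 knockdowns, and 6.20 in untransduced cells. The sgAAVS1 value stood 0.22 ± 0.11 above untransduced cells and did not differ beyond counting error from TASOR2, MPP8 or PPHLN1, while it differed from TASOR by -0.32 ± 0.10. HSPBP1, which promotes nucleotide exchange on HSP70, had 6.12 in sgAAVS1 cells, 6.36 in TASOR, 6.17 in TASOR2, 6.32 in MPP8 and 6.32 in PPHLN1 knockdowns, and 6.06 in untransduced cells. Its sgAAVS1 minus untransduced difference was 0.06 ± 0.12. HSPBP1 in sgAAVS1 cells differed from TASOR by -0.24 ± 0.11, from MPP8 by -0.19 ± 0.12 and from PPHLN1 by -0.20 ± 0.12, 3 of 5 intervals below 0. None was below 0 once the columns' medians were set equal. With the GC trend removed, 3 of 5 HSPBP1 intervals lay below 0. When the median difference was set to 0 as well, 1 did, that against TASOR2 (-0.21 ± 0.13). Reads of RDH13 may be shared with CTC-550B14.6 and CTC-550B14.7, and those of TNNI3 with CTD-2587H24.4, since these rows overlap and the use of strand in counting is not given. No other row overlaps PPP1R12C.

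Over the 25 comparisons of a neighbour with another group, sgAAVS1 differences ran from -0.39 to 0.58 and none was called at 1.5-fold. Of all tested genes, 0.651% were called higher at that size against TASOR, 4.9% against TASOR2, 0.596% against MPP8, 1.06% against PPHLN1 and 0.596% against untransduced cells. Against the mean of the other 5 groups, sgAAVS1 differed by -0.58 for PPP1R12C, -0.12 for HSPBP1, -0.04 for RDH13, -0.02 for TNNI3, -0.009 for TNNT1 and -0.003 for EPS8L1. The host gene thus differed by more than any of the 5 neighbours on this measure, which has no replicate check.

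All rows within 500 kb were examined by position. Of 62 rows, 40 were tested, and none was called higher or lower in sgAAVS1 than in untransduced cells, where 1.38% of all tested genes were called lower and 0.237% higher. Of the 39 tested rows other than PPP1R12C, 30 lay above untransduced cells and 9 below, and the median over these 39 was 0.09, against -0.05 over all tested genes. That median was 0.03 with the GC trend removed, 0.15 after median centring and 0.13 under quantile normalization. With the GC trend alone removed, TNNT1 and RDH13 were at 0.15, TNNI3 at 0.13, EPS8L1 at 0.03 and HSPBP1 at -0.01. Of these, only the TNNT1 and RDH13 intervals then excluded 0. Over the 27 rows with every mean above 3 other than PPP1R12C, the difference ran from -0.13 (CTC-550B14.7) to 0.30 (CTD-2587H24.5), so PPP1R12C at -0.40 lay outside their range. Set against the mean of the other 5 groups, the same 27 rows ran from -0.26 (FIZ1) to 0.04. Rows with fewer reads reached further, from -0.42 ± 0.60 for TMEM150B to 0.67 ± 0.27 for GP6, the platelet collagen receptor, which was the 1 row called at 1.5-fold. NLRP2, an NLR family gene beyond the PPP1R12C end, was the other row below all 5, at 6.92 in sgAAVS1 cells against 7.03 to 7.19 in the others. NLRP2 was no longer below all 5 after the columns' medians were set equal, but it still was with the GC trend alone removed.

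**Figure D3:**
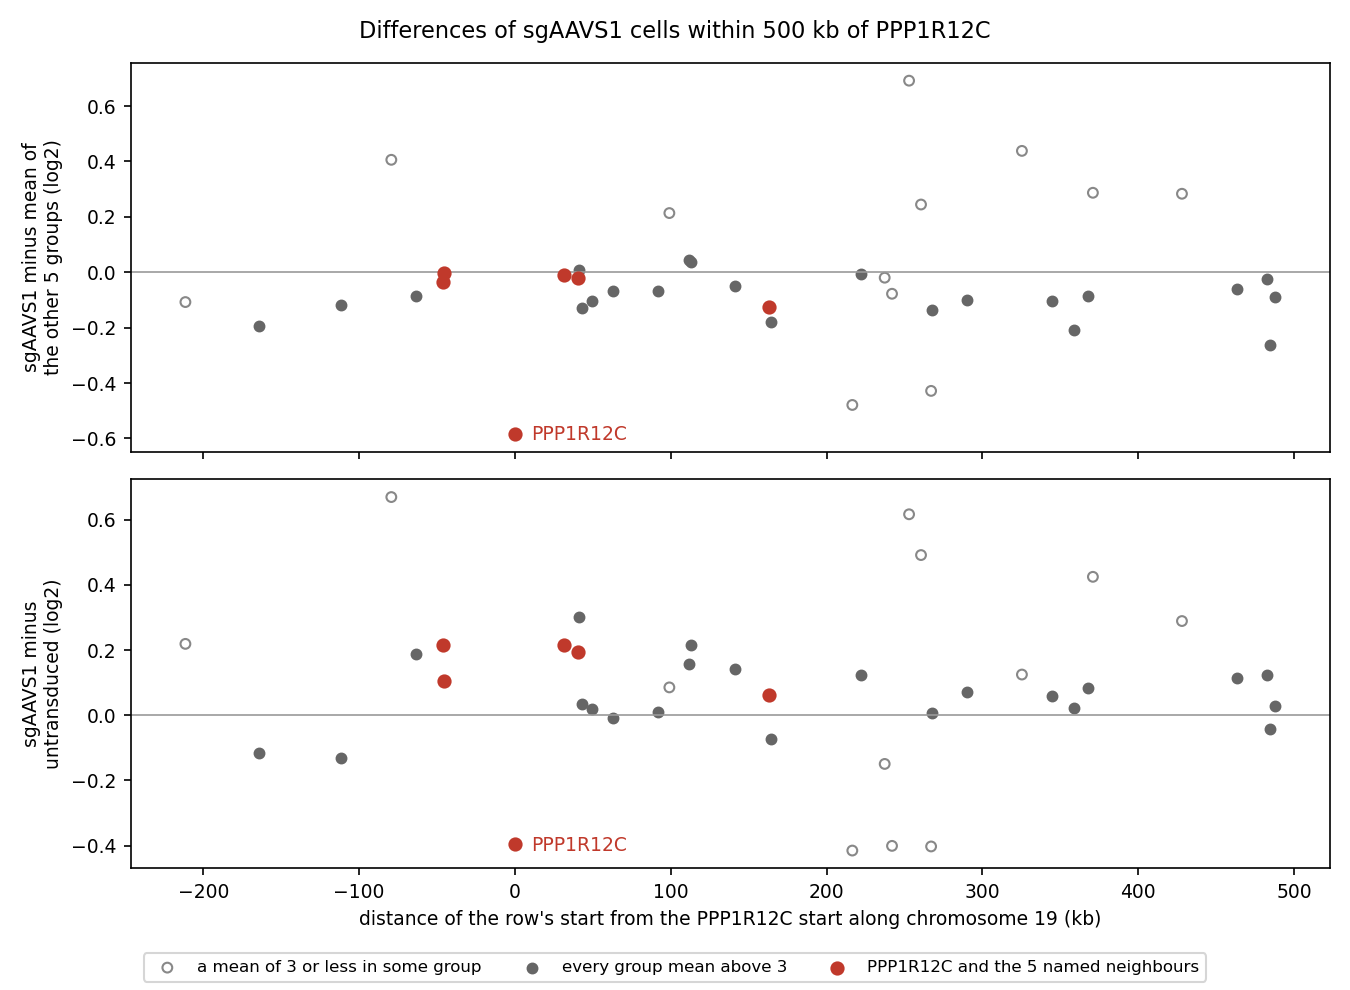
The sgAAVS1 mean minus the mean of the other 5 groups (upper panel) and minus untransduced cells (lower panel), in log2, for the tested rows within 500 kb, against distance of each row's start from the PPP1R12C start in kb. Among rows with every mean above 3 (filled points), PPP1R12C is lowest in both panels, at -0.58 and -0.40.

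The genes aimed at by the other guides give a scale for these values. In their own knockdowns, FAM208A (TASOR) was at 6.0% of the untransduced level, MPHOSPH8 (MPP8) at 27.8%, FAM208B (TASOR2) at 31.6% and PPHLN1 at 37.3%, each called lower at 2-fold. Of all tested genes, 0.84% were called lower against untransduced cells in the TASOR, 1.02% in the MPP8, 3.26% in the TASOR2 and 0.822% in the PPHLN1 knockdown. The same genes were at 6.56%, 28.2%, 37.5% and 40.8% of the sgAAVS1 level, in that order, where 0.341%, 0.316%, 2.03% and 0.615% of tested genes were called lower. PPP1R12C in sgAAVS1 cells, at 76.0% of untransduced, kept a larger share than any of these 4. The place where each guide binds differs and is not given here, so these shares do not compare the guides' strengths at a like position.

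**Figure D4:**
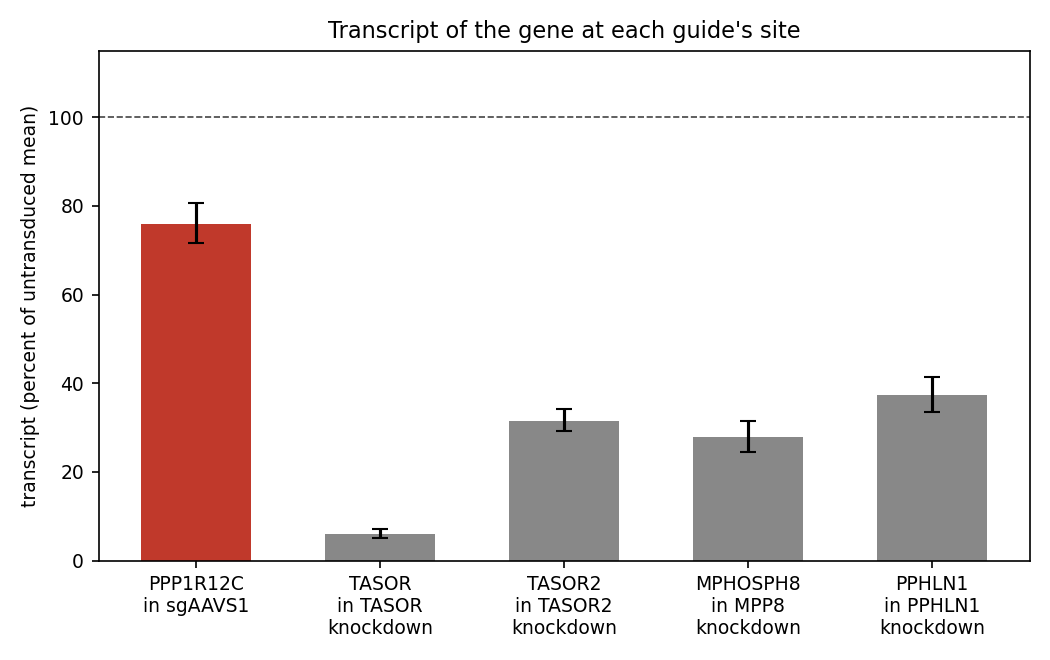
Level as a percentage of the untransduced mean (bars from 0, whiskers the 95% counting interval, dashed line at 100%) of PPP1R12C in sgAAVS1 cells and of the 4 targeted genes in their own knockdowns. PPP1R12C stands at 76.0%, and the targeted genes lie between 6.0% and 37.3%.

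The other genes of the myosin phosphatase system lay nearer to 0 than PPP1R12C. Of 17 genes listed, PPP1R12C among them (catalytic, targeting and inhibitory subunits, kinases and light chains), all 17 were tested. None was called in sgAAVS1 against untransduced cells, where 1.38% of all tested genes were called lower and 0.237% higher. The median difference over the 17 was -0.02, against -0.05 over all tested genes, and 11 of the 17 counting intervals held 0. Of the rest, 4 lay above 0 and 2 below, those of PPP1R12C and of PPP1R14C, an inhibitory subunit (-0.13 ± 0.11). The related targeting subunits PPP1R12A and PPP1R12B differed by -0.03 and -0.08. PPP1R16A, a targeting subunit held to membranes, was the highest at 0.14 ± 0.09, and MYL9, a myosin light chain, was at -0.17 ± 0.20. PPP1R12C was the 1 gene of the 17 that lay below all 5 other groups in sgAAVS1 cells, as 3.69% of all tested genes did. Both PPP1R12C and the list were chosen with earlier results of these data known.

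**Figure D5:**
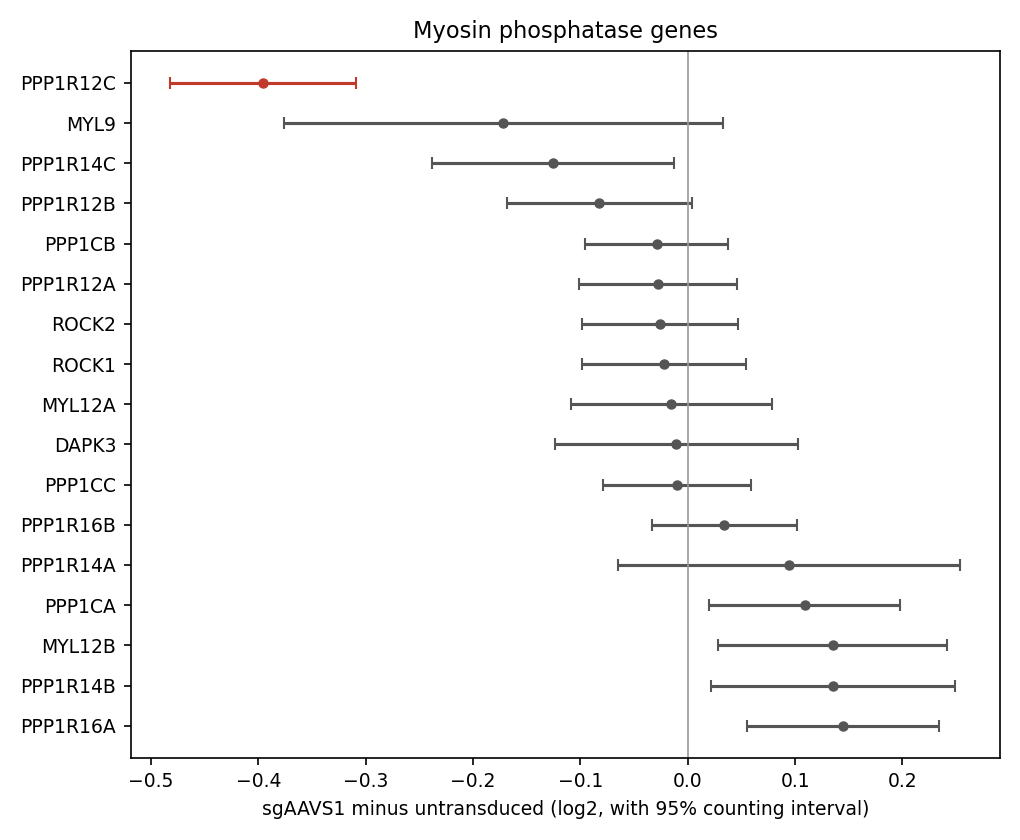
Log2 difference of sgAAVS1 minus untransduced cells (points, with 95% counting intervals) for the 17 listed genes of the myosin phosphatase system. PPP1R12C, at -0.40, is the lowest point. Its interval does not overlap those of PPP1R12A and PPP1R12B, but it does overlap that of MYL9 (-0.17 ± 0.20).

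Relatives of the neighbours were described in the same way. The lists include EPS8L1, RDH13 and HSPBP1 themselves. None of the 4 tested EPS8 family, 4 RDH family or 11 HSP70 exchange genes was called in sgAAVS1 against untransduced cells. Of all tested genes, 1.38% were called lower and 0.237% higher. Of the 11 HSP70 exchange intervals, 3 lay below 0, 1 above and 7 held 0. HSPA4L was the lowest at -0.40 ± 0.09, the size seen for PPP1R12C, but it was as low in the MPP8 knockdown (6.54 in both). HSPH1, an HSP70 exchange factor, lay below all 5 groups at the deposited scaling and did not once the columns' medians were set equal. The genes whose 6 means followed those of PPP1R12C most closely, among 668 with at least its range and every mean above 3, were DBNDD2 (Pearson's r = 0.94), SYS1-DBNDD2 (0.93), ZNF75A (0.92), ZNF211 (0.91) and RAB11FIP5 (0.91). DBNDD2 and SYS1-DBNDD2 overlap on chromosome 20, so their reads may be shared, and 7 of the 668 had r above 0.9 over 6 means.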

How the data were processed

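Per the labels' protocols, total RNA was depleted of ribosomal RNA and made into directional libraries. The tools named in the submitters' processing notes are cutadapt and Bowtie2, and the build is hg38. Sources used here do not give the counter, annotation or use of strand. A single table was deposited by the authors: a mean log2 value for untransduced cells, and for each of 5 groups another measure, found from the values to be a quotient of the group's mean log2 value and the untransduced one. Multiplying the 2 gave each group's log2 mean. Low values matched means of whole reads (100% within a relative tolerance of 0.001, with 0 reads set to 0.9), which gave the depths. They match a mean of 3 libraries for sgAAVS1 and 2 for each other group, although the labels list 3 for TASOR2. In 102 rows with an untransduced value within 0.05 of 0 the recovery is less exact. For rows sharing a symbol, the row with the highest mean was kept (16 others dropped). Genes with at least 1 mean above 0 were tested.

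The planned limma fit needs single libraries and could not be made. Intervals take Poisson error. A group with no reads allows up to 3 counts. Rules for calls were tested on simulated data that held counting error alone, so this cannot show how they fare with spread between libraries or guides. Named genes were the 6 members, the targeted genes, listed pathway and marker genes, rows within 500 kb that met a call rule or stood at an end of the range, and the 5 genes of highest correlation. PDE4DIP was named after its value was seen. The members and lists were chosen with earlier results of these data known. Alternatives were median centring, quantile normalization, removal of a GC trend (lowess over genes with a GC value, 99.1% of those tested), other minimums and other baselines. Python 3.11.15, pandas 2.3.3 and statsmodels 0.14.6 were used.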

Additional observations from a re-analysis of the deposited data

How the results depend on the processing

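No paired analysis was possible because the deposited table holds group means only, and for the same reason no replicate could be left out. Of 191 alternatives, 123 stayed within their limits and 68 moved. Some that stayed could not have moved: leaving out a mean that is not the lowest cannot change the gap to the lowest mean. No difference of PPP1R12C changed sign. The difference of sgAAVS1 in PPP1R12C after median centring and after quantile normalization was -0.62 and -0.65 against MPP8, -0.46 and -0.51 against PPHLN1, -0.46 and -0.53 against TASOR, and -0.32 and -0.29 against TASOR2. Against TASOR2 it was -0.61 with the GC trend removed. The gap to the next lowest mean was -0.29 under quantile normalization. Against the mean of the 4 knockdowns in place of untransduced cells, the difference was -0.63. For sgAAVS1 minus untransduced, 39 genes were called higher, with 110 under quantile normalization, 8 with the higher mean above 2 and 98 at 1.5-fold. Genes called lower numbered 227, with 111, 19 and 532 in the same order. Below all others were 606 genes, 51 after median centring, 60 under quantile normalization, 928 without TASOR2, 1417 without MPP8 and 1365 without untransduced cells. At 1.5-fold, PPP1R12C was called in 3 knockdown comparisons in place of 0, and 1 row within 500 kb in place of 0. The median of those rows was -0.10 with the knockdown mean as baseline, in place of 0.09. For the 5 neighbours, 84 of 125 alternatives stayed within the counting interval and 41 did not, and 29 changed sign. The 84 include gaps that could not move when another mean was left out. Judged by the counting interval of the main comparison, 4 of the 29 excluded 0. These were TNNT1 against TASOR (0.14), TNNI3 against TASOR (0.14) and PPHLN1 (0.15), all after median centring, and HSPBP1 against the knockdown mean (-0.17). The knockdown mean rests on more reads than the untransduced mean, and its own narrower interval was not applied in this count. RDH13 against the knockdown mean, at -0.10, lay within the ± 0.11 that was applied. EPS8L1 against TASOR2 passed 1.5-fold after median centring (0.67) and quantile normalization (0.61). It fell to 0.33 with the GC trend removed, and was 0.40 when the median difference was set to 0 as well, both short of 1.5-fold. The cause of these shifts was not tested. Depth limits single genes with few reads, and the missing spread between libraries limits every value.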

Other observations

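Among genes with every mean above 3, 15 others had an sgAAVS1 mean as far below the next lowest group as PPP1R12C or farther. They were picked out after their values were seen. RAB11FIP5, a partner of the endosomal GTPase Rab11, had a log2 mean of 5.06 in sgAAVS1 cells, against 6.32 to 6.92 in the other groups. DBNDD2 had 4.96 in sgAAVS1 cells, against 5.87 to 6.27 in the others. ZNF30, a zinc finger gene on chromosome 19, had 4.22 in sgAAVS1 cells, against 4.93 to 5.21 in the others. The 15 also held the zinc finger genes ZNF331, ZNF20, ZSCAN18 and ZNF329 and the noncoding LINC00665, all on chromosome 19. ALDH1A1, which makes retinoic acid, had 5.04 in sgAAVS1 cells, against 5.49 to 6.10 in the others. These genes lie outside the 500 kb around PPP1R12C, and whether the AAVS1 guide has similar sequence near any of them was not tested.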
